A study of Mus musculus with 32 samples.

Results

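The hypothalamus was compared between mice that lack COX10 in skeletal muscle and control mice at 200 days of age. The comparison used 8 of the 32 libraries of the study, which are the 4 labelled as hypothalamus of controls (CTL 1 to 4) and the 4 labelled as hypothalamus of COX10 KO mice (COX10 KO 1 to 4). All 8 mice were labelled male and C57BL/6. COX10 helps to build cytochrome c oxidase, complex IV of the respiratory chain, and its floxed gene was deleted by a Cre recombinase placed in the locus of Myl1, a myosin light chain of fast muscle fibres, so the deletion was aimed at muscle and not at brain. The labels give the controls only as Ctrl, without their alleles or litters. Frozen tissue was processed to RNA and read from the 3′ end of polyadenylated transcripts, with 1 library per sample, so that a count does not grow with transcript length. The other 24 libraries were muscle and liver, and muscle is used below only where an effect in hypothalamus is set against the tissue that carries the deletion.

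The hypothalamus is a small region at the base of the brain made of nuclei with different peptide neurons. In the arcuate nucleus, neurons that make Npy (neuropeptide Y) together with Agrp, an antagonist of melanocortin receptors, stimulate feeding, and neurons that make pro-opiomelanocortin (Pomc) restrain it. Leptin from fat inhibits the former, and glucocorticoids stimulate them. Neurons of the paraventricular and supraoptic nuclei release oxytocin (Oxt) and vasopressin (Avp), and the corticotropin-releasing neurons of the paraventricular nucleus start the hypothalamic-pituitary-adrenal axis. The study measured this region beside leptin and corticosterone, with appetite genes in view. It reported Agrp and Npy transcripts as raised in COX10 KO hypothalamus. It proposed that low leptin acts on them through corticosterone.

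Libraries held 3526613 to 5684034 counts, except CTL 1 with 22321322. Levels below are CPM, counts brought to a common library size that was scaled by the trimmed mean of M values, given in the order CTL 1 to 4 and COX10 KO 1 to 4. Reads carried no molecular identifiers, so that counting limits cover counting error only. The labelled tissue held its defining transcripts in every library. Hcrt, the orexin precursor of the lateral hypothalamus, ran from 51.3 to 482 CPM, and Pmch, the precursor of melanin-concentrating hormone, from 80.0 to 882 CPM. Alb, the main liver transcript, was at most 0.217 CPM and the muscle myosin Myh4 at most 0.284 CPM of the library total. Myl1, from whose locus Cre is made, had 1 to 18 counts a library (0.213 to 1.14 CPM in CTL and 1.302 to 2.01 CPM in COX10 KO). All libraries had transcripts of the Y chromosome and at most 1 count of Xist, as their label of male sex requires. Cox10 itself, the targeted gene, read 71.2, 82.6, 79.4 and 48.9 CPM in CTL and 71.2, 94.9, 93.1 and 86.3 CPM in COX10 KO hypothalamus, with overlapping groups (log2 fold change 0.29, SE 0.20, edgeR adjusted p = 1).

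Before the genotypes were compared, the libraries were compared with each other. The first principal component of log2 CPM held 48.8% of the variance and set both libraries numbered 1 (-50.8 for each) apart from both numbered 2 (0 and -1.1) and from those numbered 3 and 4 (22.5 to 28.6). The second component held 22.5% of the variance and set 1 library, CTL 4 (51.3), apart from the other 7 (-19.4 to 8.4). Neither component divided CTL from COX10 KO. In CTL 4, 145 of 14276 genes with a mean of at least 10 counts were above double the highest value of the other 7 libraries, and 239 lay below their lowest by more than the same factor. For the other libraries these counts were 1 to 7 and 16 to 61.

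**Figure D1:**
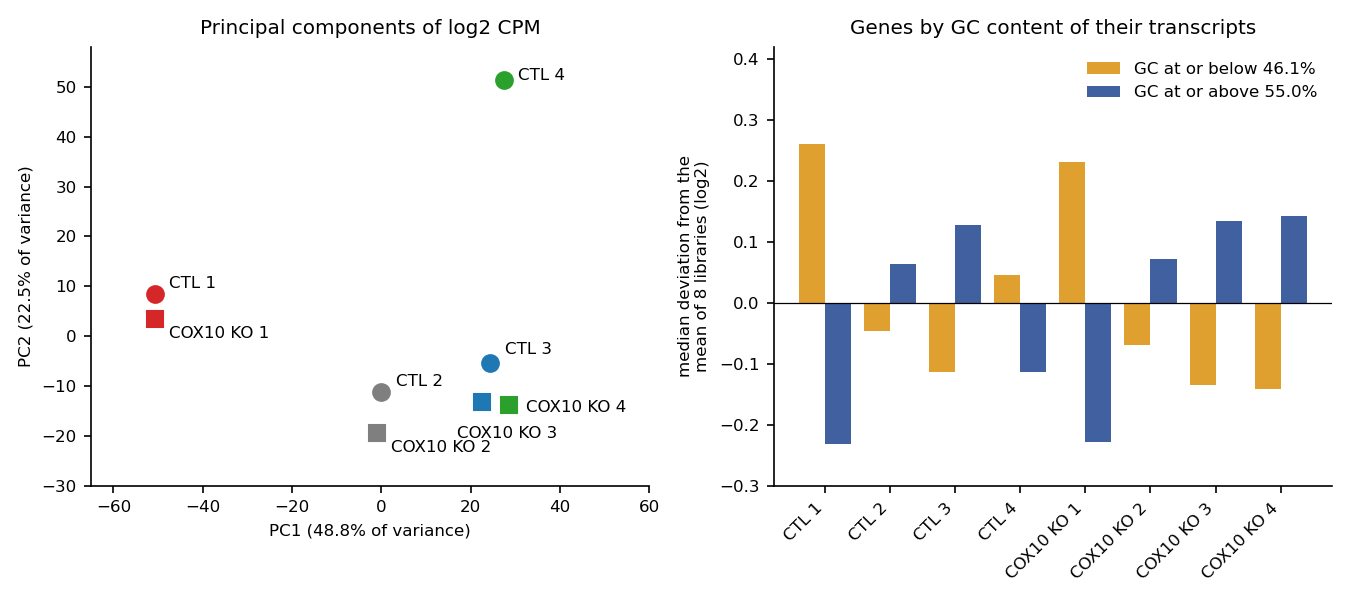
Left, the 8 hypothalamus libraries on the first 2 principal components of log2 CPM, with circles for CTL, squares for COX10 KO and 1 colour per library number; both libraries numbered 1 lie at -50.8 on the first axis, and CTL 4 stands alone at 51.3 on the second. Right, the median deviation (log2) of each library from the mean of all 8, for genes with a transcript GC content at or below 46.1% (orange) and at or above 55.0% (blue); the libraries numbered 1 are above 0 for low GC and below 0 for high GC.

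Libraries numbered 1 differed from the rest over a large part of the transcriptome, and in the same genes in both genotypes. Of 12872 named genes with a mean of at least 10 counts, 3361 (26.1%) were higher in both libraries numbered 1 than in each of the other 6, and 2756 (21.4%) were lower. The same counts for the libraries numbered 2, 3 and 4 were 347, 461 and 863 genes higher and 362, 479 and 793 lower. At a ratio of at least 2 between the mean of both and the mean of the other 6, 679 genes were higher and 252 lower. Across 13504 genes, the log2 ratio of CTL 1 to CTL 2 to 4 and that of COX10 KO 1 to COX10 KO 2 to 4 had a Pearson r of 0.824, a description over genes, which are not independent replicates. CTL 1 held 22321322 counts and COX10 KO 1 held 4840873, so that depth was not shared between them. These libraries were singled out from their own values, and none of these counts is a test.

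The 10 named genes with the largest ratio were Tes3-ps, Tagln, Zic2, Ccdc47, Dthd1, Il31ra, Lhx1, Hist1h1e, Dnajc14 and Senp3, at 4.51 to 7.24 times the mean of the other 6. Tagln, an actin-binding protein of smooth muscle, read 15.5 and 14.1 CPM in both libraries numbered 1 against 1.22 to 3.72 CPM in the rest. Its cell class was not raised as a whole, since the summed level of 8 mural cell markers, Tagln included, was 156 and 138 CPM in these libraries and 128 to 193 CPM in the rest. Zic2, a zinc finger transcription factor of the developing forebrain, read 12.6 and 10.2 CPM against 1.59 to 2.90 CPM. Lhx1, a transcription factor of the suprachiasmatic nucleus, read 12.04 and 11.1 CPM against 1.34 to 4.16 CPM. The 8 suprachiasmatic markers, Lhx1 included, summed to 301 and 292 CPM in these libraries and to at most 231.5 CPM in the rest. Without Rorb, the most abundant of them, the sums overlapped. Hist1h1e, a linker histone, read 9.41 and 8.90 CPM against 0.669 to 3.61 CPM.

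The 10 with the smallest ratio were S100g, Kap, Wdr83os, Rhob, Zfp963, Zfp738, Atxn7l2, Castor1, Magee2 and Gdf10, at 0.0358 to 0.302 times the other 6. Rhob, a small GTPase, was the most abundant of them. It read 86.2 and 69.7 CPM in the libraries numbered 1, 119.5 and 144 CPM in those numbered 2, 296 and 300 CPM in those numbered 3 and 544 and 540 CPM in those numbered 4. Its level thus followed the library number in both genotypes. S100g, a calcium-binding protein, read 0.0470 and 0.217 CPM against 0.223 to 10.5 CPM, and Kap, known as an androgen-regulated transcript of kidney, read 0.941 and 1.08 CPM against 1.39 to 28.2 CPM, with the highest value of each in CTL 3. In the libraries numbered 1 these values rest on 1 and 1 counts for S100g and 20 and 5 for Kap.

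The genes on either side differed in base composition. Median GC content of their transcripts was 46.4% for the 614 of 679 higher genes that were tested and had a transcript sequence, and 55.4% for 245 of 252 lower genes, against 50.5% for all genes tested. Median transcript length was 2162, 1224 and 1486 bases. In CTL 1 and COX10 KO 1, genes with a GC content at or below 46.1% lay 0.26 and 0.23 log2 units above the mean of the 8 libraries in the median, and genes at or above 55.0% had a median of -0.23 in each. The libraries numbered 2 and 3 and COX10 KO 4 had the opposite signs, and CTL 4 had the signs of the libraries numbered 1 at a smaller size (0.045 and -0.11). Mitochondrial ribosomal RNA made up 5.94% and 5.96% of counts in the libraries numbered 1 and 1.93% to 2.88% in the rest. Ribosomal protein transcripts made up 1.18% and 1.27% of counts against 1.56% to 1.94%. Whether base composition, RNA quality or a processing group made this difference was not tested, and the labels name no such group.

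Neuronal and astrocyte markers were nearly level between the genotypes. Summed over the 13 of 14 neuronal markers with counts, the libraries read 7478, 7337, 7695 and 8437 CPM in CTL and 7410, 7142, 7697 and 7621 CPM in COX10 KO. Syt1, a calcium sensor of synaptic vesicles, was the most abundant of them (1611 to 2320 CPM). The 13 astrocyte markers summed to 3770 to 4085 CPM and 3661 to 4120 CPM, led by the glutamate transporter Slc1a2 (1158 to 1596 CPM). The 12 microglial markers summed to 406.5 and 401 CPM in the libraries numbered 1 and to 573 to 751 CPM in the rest, so that they followed the library number. Oligodendrocyte markers (5996 and 5414 CPM against 6652 to 13460 CPM) and ependymal markers were also lower in both libraries numbered 1 than in the rest. So were the cortical and hippocampal, dorsomedial and tuberomammillary lists described below. Endothelial, mural, ependymal and tanycyte lists overlapped between the genotypes (ratios of the means, COX10 KO to CTL, of 0.879, 0.893, 1.07 and 1.11). The endothelial list was lower in COX10 KO in all 4 pairs, and over the library total its groups did not overlap (245 to 280 CPM in CTL and 217 to 241 CPM in COX10 KO). Oligodendrocyte precursor markers (ratio 0.912) and Slc17a6, a marker of glutamatergic neurons outside cortex (ratio 0.898), were also lower in all 4 pairs, with overlapping groups. The tanycyte list was higher in all 4 pairs. Rgs5, a pericyte gene, read 43.3, 45.7, 56.2 and 62.3 CPM in CTL and 35.6, 35.8, 37.9 and 39.7 CPM in COX10 KO, lower without overlap (log2 fold change -0.47, SE 0.18, edgeR adjusted p = 1, unadjusted p = 0.0208). In bulk tissue, fewer cells of a type and less RNA per cell cannot be told apart.

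CTL 4 was the library that left these ranges. Its 13 oligodendrocyte markers summed to 13460 CPM against 5414 to 8328 CPM in the other 7, and its 8 GABAergic markers to 1123 CPM against 561 to 740 CPM. Ratios of the means of these lists, COX10 KO to CTL, were 0.833 and 0.854, with overlapping groups. Without their most abundant members (Mbp and Gad1) the ratios were 0.741 and 0.912. Mbp, myelin basic protein, read 4658 CPM in CTL 4 and 2482 to 4119 CPM elsewhere. Gad1, a glutamate decarboxylase that makes GABA, read 479.5 CPM in CTL 4 and 149 to 217 CPM elsewhere, while its partner enzyme Gad2 read 279 CPM and 146 to 208 CPM.

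Markers of regions outside the hypothalamus were present and differed between libraries. Whether the dissection or expression within the cells set these levels was not tested, and several of the markers are not confined to 1 region. Cortical and hippocampal markers were present in all 8. The 16 genes of that list summed to 1453, 2134, 2766 and 1923 CPM in CTL and 1854, 2486, 4204 and 3350 CPM in COX10 KO (ratio 1.44), higher in COX10 KO in each of the 4 pairs of libraries with the same number, with overlapping groups. Nrgn (neurogranin, a postsynaptic protein of forebrain excitatory neurons) gave most of this sum. Without it the ratio was 1.28. Of 15 members tested, 0 were called, 1 had an unadjusted edgeR p under 0.05, and 6 were higher in COX10 KO in all 4 pairs, against 9.94% of all genes tested. The median log2 fold change of the list was 0.41, against -0.01 over all genes tested. Slc17a7, the glutamate transporter of cortical neurons, read 53.1, 110, 140 and 40.7 CPM in CTL and 82.7, 117, 208 and 133 CPM in COX10 KO.

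The 11 thalamic markers summed to 1769 to 2977 CPM in CTL and 1581 to 2965 CPM in COX10 KO, highest in both libraries numbered 1. Their most abundant member was Rora, a nuclear receptor (642 to 1296 CPM). Striatal markers ran from 526 to 1067 CPM over the 8 libraries. Monoamine neuron markers of midbrain and hindbrain summed to at most 2.60 CPM, near the limit of 3 counts (0.134 to 0.851 CPM by library). Pituitary markers were near 0 in CTL 2 to 4 and COX10 KO 3 (0 to 0.708 CPM), were at 3.25 CPM in COX10 KO 1 and reached 15.0 CPM in CTL 1, 10.8 CPM in COX10 KO 2 and 70.2 CPM in COX10 KO 4. In COX10 KO 4, Cga, the common subunit of pituitary glycoprotein hormones, read 34.3 CPM and Gh (growth hormone) 28.1 CPM.

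Markers of the choroid plexus, the epithelium that makes cerebrospinal fluid, summed to 3313, 3236, 2952 and 1536 CPM in CTL and 3774, 4515, 5796 and 5358 CPM in COX10 KO, with no overlap (ratio 1.76). This rested on Ttr, the thyroid hormone carrier transthyretin, which read 2633, 2818, 2570 and 1232 CPM in CTL and 3153, 4107, 5270 and 4914 CPM in COX10 KO. Its log2 fold change was 0.91 (SE 0.29, edgeR adjusted p = 1), and 0.71 without CTL 4, its lowest library. The other 14 markers summed to 681, 418, 382 and 304.5 CPM and 620.5, 408, 526 and 443 CPM, with overlapping groups (ratio 1.12). Enpp2 made up most of this sum. Of the 15 genes tested, 0 were called, 14 had a positive log2 fold change, 2 had an unadjusted p under 0.05 (both higher, against 0.889% of all genes) and 4 were higher in all 4 pairs (against 9.94%). Beside Ttr these 4 were Folr1, Clic6 and Otx2, at ratios of the means of 1.71, 1.26 and 1.23. All 15 had counts, and Enpp2, next in level to Ttr, ran from 232 to 528 CPM.

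The 5 haemoglobin and erythroid genes summed to 587, 1601, 1698 and 888 CPM in CTL and 1253, 1771, 1906 and 2181 CPM in COX10 KO, higher in all 4 pairs with overlapping groups (ratio 1.49). Of the 5, 0 were called, 1 had an unadjusted p under 0.05 (against 1.56% of all genes) and 4 were higher in all 4 pairs (against 9.94%). Hbb-bs, an adult beta globin, read 274, 806, 1014 and 639 CPM and 544, 883, 1063 and 1481 CPM. Meningeal and fibroblast markers overlapped (72.8 to 94.3 CPM in CTL and 81.1 to 180 CPM in COX10 KO), and their highest library was COX10 KO 1, where the collagen Col1a1 read 80.9 CPM against 9.41 to 29.2 CPM elsewhere. The part of choroid plexus, blood or meninges in the results below was not tested.

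**Figure D2:**
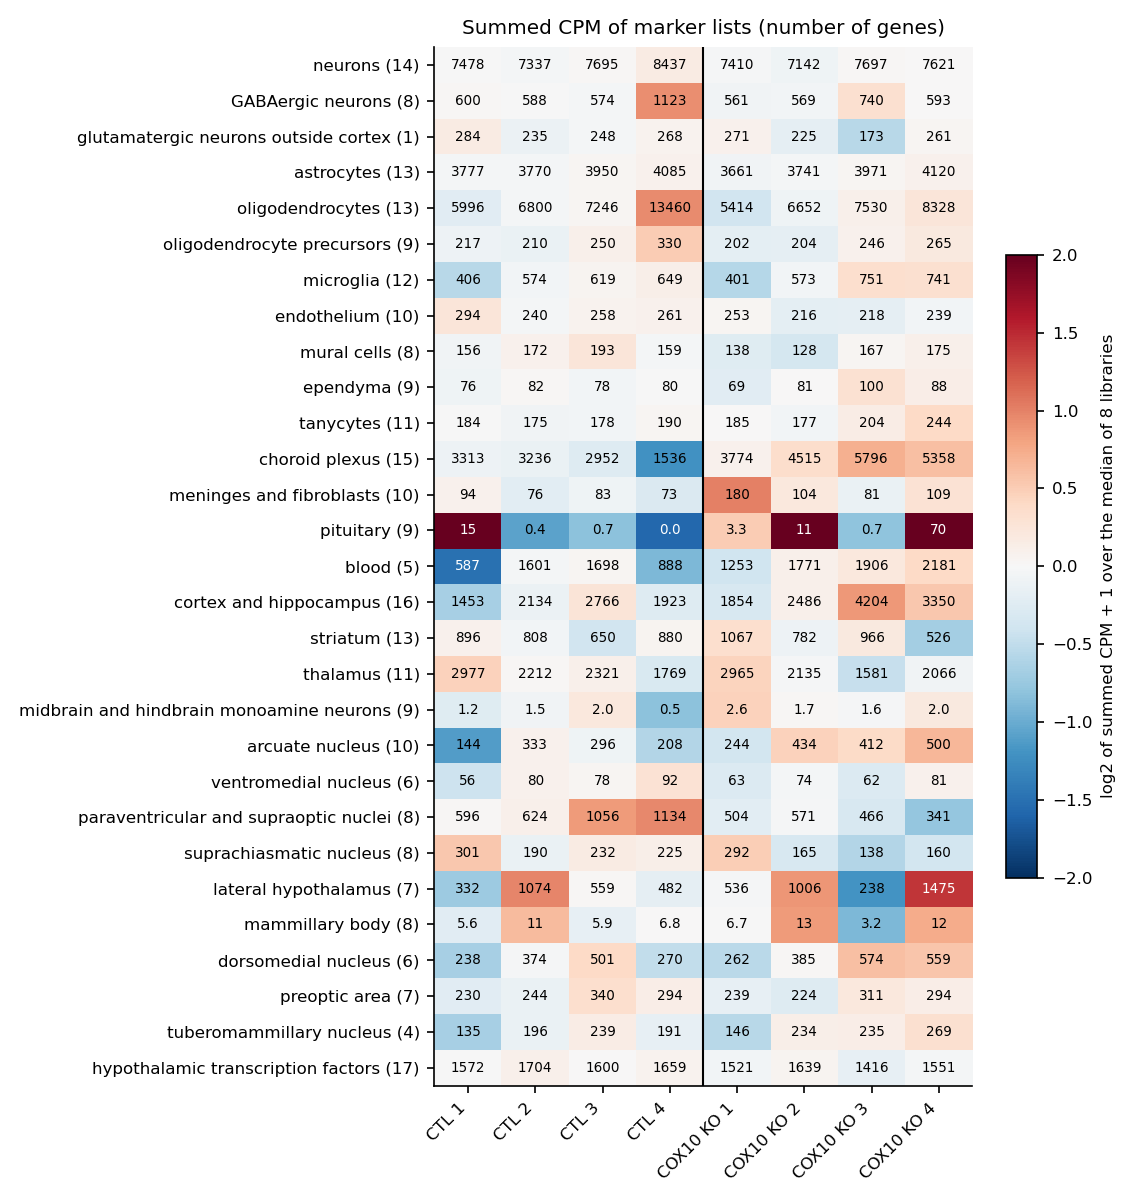
Summed CPM of 29 marker lists (rows, with the number of genes) in the 8 hypothalamus libraries (columns). Each cell prints the sum, and its colour is the log2 of the sum plus 1 over the median of the 8 libraries, from blue (lower) to red (higher). Neurons and astrocytes are nearly level, while lateral hypothalamus (238 to 1475 CPM), cortex and hippocampus (1453 to 4204 CPM) and pituitary (0 to 70.2 CPM) vary between libraries, and choroid plexus is higher in all 4 COX10 KO libraries.

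Markers of the nuclei of the hypothalamus also varied between libraries. The 7 lateral hypothalamic markers summed to 332, 1074, 559 and 482 CPM in CTL and 536, 1006, 238 and 1475 CPM in COX10 KO. COX10 KO 3 was the lowest of all 8 libraries for Hcrt and Pmch and for the sums of lateral hypothalamic and thalamic markers, and the highest for cortex and hippocampus. COX10 KO 4 was the highest for Hcrt, Pmch and the pituitary. The 17 transcription factors and other genes of hypothalamic identity summed to 1572 to 1704 CPM in CTL and 1416 to 1639 CPM in COX10 KO, with overlapping groups and a lower value in COX10 KO in all 4 pairs (ratio 0.938). Without Ahi1, the most abundant of them, the sums ran from 790 to 1316 CPM over the 8 libraries (ratio 0.879), again lower in all 4 pairs. Mammillary markers were low throughout (3.19 to 13.1 CPM). Suprachiasmatic markers were lower in COX10 KO in all 4 pairs, at 301, 190, 232 and 225 CPM in CTL and 292, 165, 138 and 160 CPM in COX10 KO, with overlapping groups (ratio 0.798). Among them Rgs16, a regulator of G protein signalling, read 23.1, 27.5, 54.2 and 64.5 CPM and 15.6, 15.6, 19.1 and 36.3 CPM (log2 fold change -0.95, SE 0.37, unadjusted p = 0.0228, edgeR adjusted p = 1). Ventromedial, preoptic and tuberomammillary lists overlapped between the genotypes (ratios 0.912, 0.963 and 1.16). The preoptic ratio was 1.22 without Zic1, its most abundant member. The dorsomedial list (ratio 1.29) was mostly Cck, a peptide that is also abundant in cortex.

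The 10 arcuate markers, 9 of them with counts, summed to 144, 333, 296 and 208 CPM in CTL and 244, 434, 412 and 500 CPM in COX10 KO, higher in COX10 KO in all 4 pairs. Without Npy and Agrp the other 8 summed to 67.7, 179, 163 and 127 CPM and 84.0, 125, 156 and 238 CPM, higher in 2 of 4 pairs (ratio 1.12). The 8 paraventricular and supraoptic markers summed to 596, 624, 1056 and 1134 CPM in CTL and 504, 571, 466 and 341 CPM in COX10 KO, with no overlap (ratio 0.552). When levels were taken over the library total instead of the scaled library size, the groups of this list overlapped. Without Oxt and Avp the other 6 summed to 143 to 228 CPM and 164 to 200 CPM (ratio 1.01). A sum is set by its abundant members, and gene by gene the list leaned lower. Of 8 members tested, 0 were called and 1 had a positive log2 fold change. At an unadjusted edgeR p under 0.05, 3 were lower (against 0.674% of all genes), and 4 were lower in all 4 pairs (against 10.2%). The median log2 fold change was -0.58, against -0.01 over all genes tested.

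The genotypes were compared over all genes with the quasi-likelihood test of edgeR. Of 13504 genes tested, 0 (0.0%) passed an adjusted p of 0.05 after Benjamini-Hochberg correction, and DESeq2 also called 0. At an unadjusted edgeR p under 0.05 there were 211 genes (1.56%), of which 120 (0.889%) were higher and 91 (0.674%) lower in COX10 KO. Every COX10 KO library was above every CTL library for 91 genes (0.674%) and below for 99 (0.733%). In all 4 pairs of one number, 1342 genes (9.94%) were higher and 1380 (10.2%) lower. DESeq2 had 287 genes at an unadjusted p under 0.05.

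With the library number as a block, edgeR called 2 of 14212 genes (0.0141%), both higher in COX10 KO. They were Npy (log2 fold change 1.14, SE 0.12, adjusted p = 0.0122) and Hpca (0.68, SE 0.08, adjusted p = 0.0247), a calcium sensor of hippocampal and cortical neurons. Hpca read 145, 363, 619 and 415 CPM in CTL and 245, 537, 961 and 726 CPM in COX10 KO, 1.48 to 1.75 times as high in each pair with overlapping groups. The cortical and hippocampal markers moved the same way in the same pairs, and their part in this result was not tested. Without the libraries numbered 1, 2 or 3 Hpca was not called with the block (log2 fold change 0.65, 0.73 and 0.70, adjusted p = 0.158, 0.427 and 0.163), and without those numbered 4 it was (adjusted p = 0.00345). DESeq2 with the block called 18 genes higher and 2 lower, with Npy and Hpca first, followed by the kinase Ptk2b and Nrgn. It gave an adjusted p to 5548 genes with the block and to 25451 without it, so this count is not like for like with that of edgeR. The 2 lower genes were Tjap1 (-0.96, SE 0.22) and Rnf152 (-0.56, SE 0.15). No label says that the number marks a shared litter, cage or day.

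Of the feeding peptides, Npy was the transcript with the clearest difference. It read 73.2, 149, 129 and 79.3 CPM in CTL and 150, 284, 254.5 and 253 CPM in COX10 KO, from 326 to 1556 counts. Each COX10 KO library was above each CTL library, although the highest CTL (149 CPM) and the lowest COX10 KO (150 CPM) nearly met. Within a number, COX10 KO was 2.05, 1.90, 1.97 and 3.19 times CTL. The log2 fold change was 1.13 (SE 0.27, a fold of 2.19). It did not pass the test without the block (edgeR adjusted p = 1, unadjusted p = 0.00132), and permuting the libraries exactly, two-sided, gave p = 0.0286, the smallest that 4 against 4 allows. With the block, the call was kept without the libraries numbered 1 (adjusted p = 0.0130) or 4 (adjusted p = 0.000168) and lost without those numbered 2 (log2 fold change 1.22, adjusted p = 0.227) or 3 (1.19, adjusted p = 0.0689). With a term for number 1 in place of the block, Npy was not called by edgeR (log2 fold change 1.11, adjusted p = 0.099). Npy is also made by inhibitory neurons of the cortex. Sst, another peptide of those neurons, read 200, 278, 330 and 389 CPM in CTL and 223, 354.5, 416 and 411 CPM in COX10 KO (log2 fold change 0.23, SE 0.25). Sst is not confined to them. It is also the most abundant member of the list of releasing hormones below, so its level does not separate cortical from hypothalamic neurons. Whether arcuate or cortical neurons gave the difference in Npy was not tested.

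The Npy gene lies on the plus strand of chromosome 6 (GRCm38, 49822710 to 49829507). Since Npy was the feeding gene called with the block, the 250 bases before its start are given from RefSeq (GRCm38.p6, chr6:49822460-49822709, plus strand, 5′ to 3′), with the GC box GGGCGG in capitals:

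Npy: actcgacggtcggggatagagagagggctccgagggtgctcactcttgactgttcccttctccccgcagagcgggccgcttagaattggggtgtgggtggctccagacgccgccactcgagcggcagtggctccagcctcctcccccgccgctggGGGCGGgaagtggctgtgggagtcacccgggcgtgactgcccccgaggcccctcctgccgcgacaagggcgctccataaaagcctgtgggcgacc

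Searched on both strands, this window held 1 match to GGGCGG, a motif found in 32.7% of 32851 promoter windows of that length. It held 0 matches to the glucocorticoid receptor half-site AGAACA (16.1% of windows), 0 to the STAT motif TTCNNNGAA (7.02%) and 0 to the cAMP response element TGACGTCA (1.55%). A match is only a run of letters, and its absence from this window says nothing about binding elsewhere.

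Agrp was low and uneven. It read 3.06, 4.91, 3.41 and 1.95 CPM in CTL and 9.55, 25.8, 1.24 and 9.36 CPM in COX10 KO, from 7 to 93 counts. COX10 KO 1, 2 and 4 were above all CTL libraries, and COX10 KO 3 was below all of them. The log2 fold change was 1.75 (SE 0.63, edgeR unadjusted p = 0.0156, adjusted p = 1), and the exact permutation p was 0.143. With the block it was 1.54 (adjusted p = 0.441), and it ran from 0.99 to 2.14 when 1 library was left out in turn. The annotated span of Agrp (chromosome 8, 105566698 to 105637393, minus strand) overlaps other genes, among them Ripor1 on the opposite strand.

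The other peptides that stimulate feeding overlapped between the genotypes. Hcrt read 63.1, 308, 155.5 and 88.1 CPM in CTL and 168, 254, 51.3 and 482 CPM in COX10 KO. Pmch read 166, 645, 303 and 284 CPM and 284, 654, 80.0 and 882 CPM. Their log2 fold changes were 0.64 (SE 0.58) and 0.44 (SE 0.58), with edgeR adjusted p = 1, and without COX10 KO 4 they were 0.03 and -0.06. Gal (galanin) and Pnoc (prepronociceptin) differed by 0.23 (SE 0.36) and -0.07 (SE 0.24). Of 6 members of the list tested, 0 were called without the block and 1 with it (against 0.0141% of all genes), and 2 had an unadjusted p under 0.05 (against 1.56%).

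None of the 7 anorexigenic peptides tested was called or had an unadjusted p under 0.05 (median log2 fold change 0.04). Pomc read 5.17, 27.1, 10.2 and 12.2 CPM in CTL and 5.86, 6.94, 4.07 and 69.8 CPM in COX10 KO. The highest value was that of COX10 KO 4, the library with the most pituitary transcripts, and Pomc is also made by pituitary cells, while CTL 1, with the second highest pituitary sum, had 5.17 CPM of Pomc. The part of pituitary transcripts in this value was not tested. Its log2 fold change was 0.70 (SE 0.80), and -1.28 without that library. Cartpt, the precursor of the satiety peptide CART, read 19.3 to 68.2 CPM over all libraries (0.02, SE 0.38). Cck (cholecystokinin), which is abundant in cortex, had the smallest p of the list (0.37, SE 0.30, unadjusted p = 0.236).

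**Figure D3:**
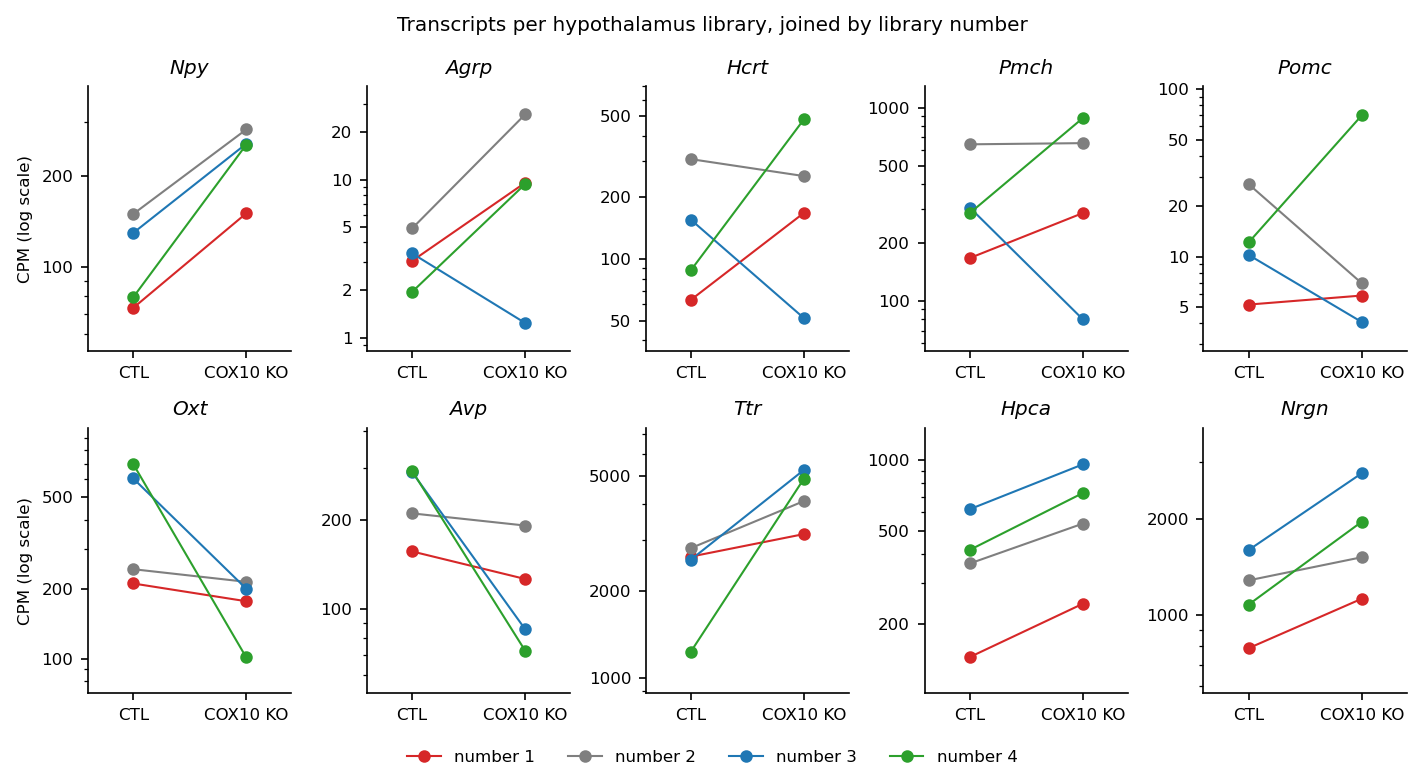
CPM (log axis) of 10 transcripts in each hypothalamus library, with CTL on the left, COX10 KO on the right and lines joining libraries of the same number. All 4 lines rise for Npy, Ttr, Hpca and Nrgn and fall for Oxt and Avp, while Agrp rises in 3 of 4 and Hcrt, Pmch and Pomc cross.

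Oxt and Avp, neighbours on chromosome 2 in opposite orientation, were lower in COX10 KO in each of the 4 pairs. Oxt read 212, 244, 604 and 697 CPM in CTL and 177.5, 215, 201 and 101.4 CPM in COX10 KO. Avp read 157, 211, 290 and 293 CPM and 127, 192, 85.8 and 72.7 CPM. For both genes the difference lay mainly in the libraries numbered 3 and 4 (0.333 and 0.146 times CTL for Oxt, 0.296 and 0.248 for Avp), while those numbered 1 and 2 were at 0.808 to 0.910 times CTL. Log2 fold changes were -1.34 (SE 0.38) and -0.996 (SE 0.31), with edgeR adjusted p = 1 and unadjusted p = 0.00425 and 0.00685, and with the block adjusted p = 0.441 for each. The exact permutation test gave p = 0.0571 for each. Otp, a transcription factor of the same nuclei, read 10.2 to 27.5 CPM in CTL and 6.55 to 16.4 CPM in COX10 KO (-0.62, unadjusted p = 0.109).

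The list of the hypothalamic-pituitary-adrenal axis and releasing hormones, with Oxt and Avp among its members, gave 0 calls among 14 tested. Crh, corticotropin-releasing hormone, read 11.9, 14.3, 14.8 and 17.3 CPM in CTL and 13.2, 11.9, 17.9 and 11.8 CPM in COX10 KO (log2 fold change -0.07, SE 0.22). Crhbp, the protein that binds and restrains it, read 2.43 to 5.33 CPM in CTL and 5.55 to 7.26 CPM in COX10 KO, without overlap (0.70, SE 0.28, edgeR adjusted p = 1, unadjusted p = 0.0296). Trh (thyrotropin-releasing hormone) differed by -0.53 (SE 0.29) and the CRH receptor Crhr1 by -0.43 (SE 0.29). Beside Crhbp, Oxt and Avp, no member had an unadjusted p under 0.05. Kiss1, which encodes kisspeptin, had 0 counts in all 8 libraries.

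Glucocorticoid-responsive genes did not pass the test. Of 19 tested, 12 had a positive log2 fold change, 3 had an unadjusted p under 0.05 (all higher, against 0.889% of all genes), 5 were higher in all 4 pairs (against 9.94%) and 0 were called. The median log2 fold change was 0.31, against -0.01 over all genes tested. Sult1a1, a sulfotransferase, read 3.53, 5.12, 4.10 and 6.08 CPM in CTL and 7.59, 15.3, 7.43 and 9.58 CPM in COX10 KO without overlap (1.10, SE 0.31, unadjusted p = 0.0036, edgeR adjusted p = 1). Zbtb16, a zinc finger protein induced by glucocorticoids, read 23.8, 19.0, 30.7 and 9.49 CPM and 57.9, 60.5, 23.2 and 28.8 CPM (1.02, SE 0.37). Fkbp5, a chaperone of the glucocorticoid receptor, read 16.1, 13.9, 18.7 and 17.8 CPM and 26.0, 34.7, 16.8 and 20.3 CPM (0.55, SE 0.24). Sgk1, a kinase, read 73.1, 51.0, 39.8 and 44.5 CPM and 94.2, 93.8, 48.3 and 67.1 CPM (0.53, SE 0.26), higher in all 4 pairs. In COX10 KO 3, Zbtb16 and Fkbp5 lay within the range of CTL, as did Zbtb16 in COX10 KO 4. Zbtb16 was lower in COX10 KO only in the pair numbered 3 (0.755 times CTL). It was the only gene called with the block when that pair was left out (1.48, adjusted p = 0.0447), and with all pairs it was not (adjusted p = 0.441).

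Receptors and signalling genes for leptin and energy balance gave 0 calls among 12 tested, and none had an unadjusted p under 0.05. Their median log2 fold change was -0.01. Npy2r, the presynaptic receptor of Npy, read 9.88, 15.6, 15.7 and 16.6 CPM in CTL and 15.2, 19.2, 20.3 and 21.0 CPM in COX10 KO (0.41, SE 0.22, unadjusted p = 0.0911), 1.23 to 1.54 times as high in each pair. Lepr, the leptin receptor, read 1.46 to 4.23 CPM and 2.48 to 7.38 CPM (0.47, SE 0.42). Stat3, which carries the leptin signal, differed by -0.24 (SE 0.17) and Npy1r by -0.43 (SE 0.33).

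Receptors of the muscle-derived hormones FGF21 and GDF15 were few. Fgf21 had 0 counts in every library and Gdf15 had 0 to 12. Gfral, the GDF15 receptor of the hindbrain, had 3 counts in COX10 KO 1 and 0 in the other 7. Klb, the co-receptor of FGF21, had 0 to 9 counts. Fgfr1, a receptor that FGF21 shares with other growth factors, read 41.0, 39.5, 40.7 and 47.0 CPM in CTL and 36.7, 31.4, 35.9 and 36.1 CPM in COX10 KO, lower without overlap (-0.26, SE 0.16, edgeR adjusted p = 1, unadjusted p = 0.135). Ret, which signals with Gfral, differed by -0.32 (SE 0.26).

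Thyroid hormone genes gave 0 calls among 9 tested. Crym, which binds thyroid hormone in the cell and is also found in cortex, read 14.0, 16.6, 8.19 and 9.73 CPM in CTL and 11.5, 23.0, 29.4 and 30.3 CPM in COX10 KO (0.94, SE 0.32, unadjusted p = 0.0108). Thra, a thyroid hormone receptor, read 741 to 1200 CPM and 846 to 1706 CPM, higher in all 4 pairs (0.48, SE 0.26). Dio2, the activating deiodinase of tanycytes, read 18.0 to 28.9 CPM and 19.1 to 27.9 CPM.

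Immediate early genes, markers of recent neuronal activity, included Fos, which read 3.90, 4.05, 5.46 and 7.30 CPM in CTL and 2.17, 1.39, 3.54 and 1.56 CPM in COX10 KO without overlap (-1.18, SE 0.37, unadjusted p = 0.00754, edgeR adjusted p = 1), from 5 to 83 counts. Arc, Egr1 and Egr4 differed by -0.59 (SE 0.39), -0.36 (SE 0.30) and 0.45 (SE 0.35), and no other member of the 8 tested had an unadjusted p under 0.05. Of 15 circadian clock genes, 0 had an unadjusted p under 0.05. Bhlhe40, a repressor of the clock, read 17.1 to 26.8 CPM in CTL and 14.7 to 16.7 CPM in COX10 KO without overlap (-0.39, SE 0.20). Tef and Dbp, output factors of the clock, differed by 0.36 (SE 0.27) and -0.36 (SE 0.33).

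Genes of reactive glia and inflammation, of the interferon response, and of ketone, fat and glucose use gave 0 calls and 0 members with an unadjusted p under 0.05 among 8, 7 and 15 tested. Gfap, the intermediate filament of astrocytes, read 63.3 to 101.2 CPM in CTL and 60.5 to 164 CPM in COX10 KO (0.24, SE 0.28). Slc16a1, a carrier of lactate and ketone bodies, had the smallest p of the third list (-0.56, SE 0.28, unadjusted p = 0.0659). Complex IV genes gave 0 calls among 12 tested and a median log2 fold change of 0.01. Their sum was 4194 and 4205 CPM in the libraries numbered 1 and 5731 to 6710 CPM in the rest. Within each number it was higher in COX10 KO, with overlapping groups (ratio 1.04).

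Over all genes, the 10 smallest p without the block belonged to mt-Ti, Npy, AC125101.1, Cidea, Sult1a1, Pycard, Nes, Oxt, 1500015O10Rik and Fmod, all at an edgeR adjusted p of 1. The mitochondrial tRNA mt-Ti read 36.3, 23.9, 25.9 and 21.7 CPM in CTL and 12.4, 16.9, 13.1 and 11.6 CPM in COX10 KO (-1.01, SE 0.22, unadjusted p = 0.000629). Its first bases overlap the end of mt-Nd1 in the annotation. Cidea, a lipid droplet protein, read 3.20 to 5.01 CPM in CTL and 4.56 to 13.6 CPM in COX10 KO (1.21, SE 0.33). Pycard, an inflammasome adaptor, read 2.99 to 3.89 CPM and 1.39 to 1.74 CPM, lower without overlap (-1.10, SE 0.31). Nes (nestin, a filament of progenitors, tanycytes and vessels) read 4.05 to 7.38 CPM and 2.23 to 2.82 CPM (-1.08, SE 0.31). Fmod (fibromodulin, a matrix protein) read 4.70 to 7.06 CPM and 8.24 to 15.8 CPM (0.92, SE 0.27). Hdc, which makes histamine in the tuberomammillary nucleus, read 4.42 to 7.25 CPM and 6.20 to 17.4 CPM, higher in all 4 pairs (1.14, SE 0.35, unadjusted p = 0.00674).

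The mitochondrial integrated stress response (ISRmt), a program of ATF4 and its targets, was set against muscle, the tissue with the deletion. In hypothalamus, of 23 members tested 0 were called, 0 had an unadjusted p under 0.05, and the median log2 fold change was 0.03. Sesn2, a stress-induced sestrin, read 2.73 to 4.05 CPM in CTL and 1.24 to 3.04 CPM in COX10 KO (-0.51, SE 0.35), and the cystine carrier Slc7a11 differed by -0.30 (SE 0.20). The 6 CTL and 6 COX10 KO muscle libraries came from 3 females and 3 males each, whereas all hypothalamus libraries were male. A joint edgeR fit of 8 hypothalamus and 12 muscle libraries, with sex as a term within muscle, tested whether the genotype effect differed between the tissues, and 283 of 14618 genes (1.94%) did at an adjusted p under 0.05. Of 27 ISRmt members in this fit, 16 differed, all with a smaller effect in hypothalamus. Genes entered the fit by their level in any group of tissue and genotype. In the fit of hypothalamus alone, 23 of the 27 had passed the filter. The rest, Gdf15 and Fgf21 among them, were low in hypothalamus and entered through muscle. The study had reported transcripts of Psat1, Cth, Gss, Sesn2, Gdf15 and Fgf21 as raised in COX10 KO muscle. It had reported the same for ATF transcription factors and genes of the mitochondrial unfolded protein response. The proteins ATF4, MTHFD2, ASNS and HSP60 were reported as raised there too. A smaller effect elsewhere was thus partly set in advance by the list and the filter, and the count is a description. With male muscle alone, 187 of 14594 genes and 11 of 26 ISRmt members differed. For Mthfd2, a folate enzyme of mitochondria, the log2 fold change was -0.23 in hypothalamus and 4.47 in muscle (difference -4.69, SE 0.35, adjusted p = 3.66e-08). Asns, asparagine synthetase, had 0.04 and 4.61 (difference -4.57, SE 0.60, adjusted p = 9.71e-05), and Psat1, of serine synthesis, 0.29 and 3.92 (difference -3.63, SE 0.40, adjusted p = 1.28e-05). Atf4 itself had 0.02 and 1.405 (difference -1.38, SE 0.30, adjusted p = 0.0132). The fitted value for Gdf15 rests on at most 12 counts in a hypothalamus library. Fgf21, with 0 counts in hypothalamus, gave no usable test.

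Of 21 glucocorticoid-responsive genes in the same fit, 19 of which had passed the filter in hypothalamus alone, 2 differed. They were the metallothioneins Mt1 and Mt2, at 0.12 and -0.11 in hypothalamus and 3.75 and 4.73 in muscle (adjusted p = 0.000173 and 1.67e-05). Zbtb16, with 1.03 and -0.56, did not pass (difference 1.59, SE 0.55, adjusted p = 0.137), nor did Fkbp5, with 0.56 and 0.42 (difference 0.14, SE 0.69, adjusted p = 0.968). With male muscle alone 3 of 21 differed, Pdk4 beside Mt1 and Mt2. Pdk4 then had -0.07 in hypothalamus and 3.10 in muscle (difference -3.18, SE 0.63, adjusted p = 0.0163).

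**Figure D4:**
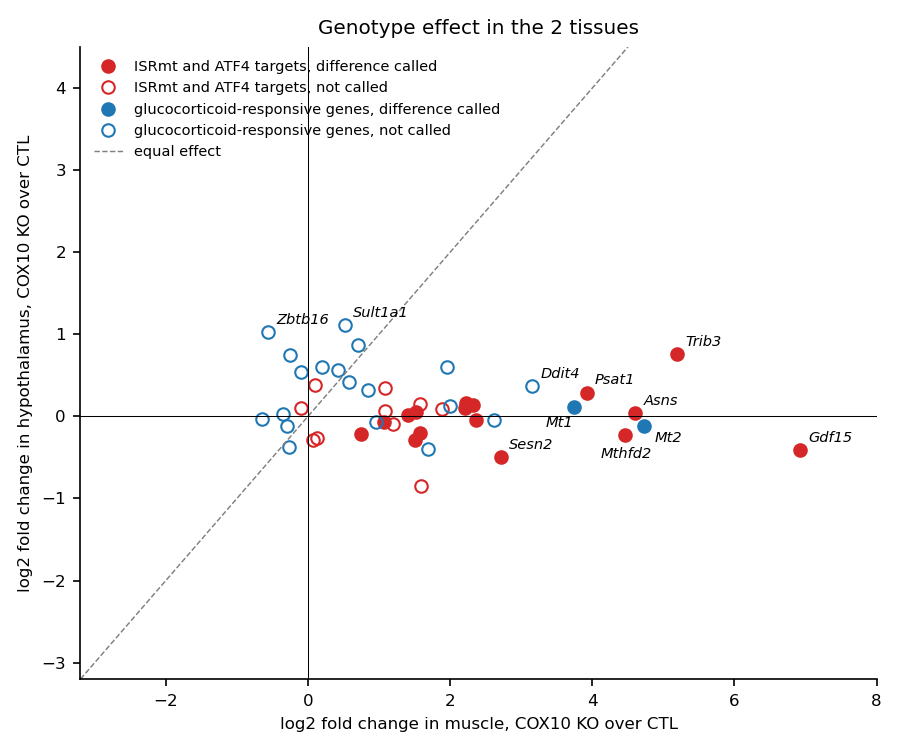
Log2 fold change (COX10 KO over CTL) in muscle (horizontal) and hypothalamus (vertical) from the joint fit, for ISRmt and ATF4 targets (red) and glucocorticoid-responsive genes (blue), with filled symbols where the difference between the tissues had an adjusted p under 0.05. Filled points lie to the right of the dashed line of equal effect and between -0.50 and 0.76 on the vertical axis; Fgf21 is left out.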

How the data were processed

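Per the labels, RNA of flash-frozen tissue was extracted with Trizol and RNeasy columns, and libraries were made with the QuantSeq 3′ kit (FWD) from 500 ng of RNA. According to the submitters' processing notes, BBDuk was used for trimming, STAR 2.5.0a for alignment (build GRCm38.p6) and HTSeq 0.6.1 for counting. The deposited values, made by the authors, are raw counts per gene, without normalization, for 55401 gene identifiers per file, 1 library per file, of which 55141 matched a symbol. The strand setting of the counting is not given in the sources used here, so reads from genes that overlap on opposite strands cannot be told apart with certainty. No 2 libraries were identical. Hypothalamus libraries held 3526613 to 22321322 counts.

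From these counts, genotypes were compared with edgeR 4.0.16 in R 4.3.3 (TMM factors, genes kept by filterByExpr, glmQLFit, two-sided quasi-likelihood F test, Benjamini-Hochberg adjusted p under 0.05 over all genes tested). Standard errors were taken from the F statistic. Fold changes are fitted values. For single genes, CPM were also permuted exactly (two-sided) over the 70 groupings of 4 against 4 (scipy 1.17.1), whose smallest p is 0.0286. Nothing in the labels says that replicates came from separate litters or extractions, so p-values measure the spread between these samples. The joint fit with muscle had terms for tissue, sex within muscle and genotype within tissue. Each gene had a single dispersion over both tissues in that fit, so its standard errors mix the spread of hypothalamus and muscle. The marker and gene lists, the rule for named genes and the samples themselves were chosen with earlier results of these data known, so the list counts and sums are descriptions, without a test of the list. Named genes were Agrp and Npy, the 10 genes with the smallest p (fewer than 10 were called), the 4 members of each genotype list with the smallest p, the 3 most abundant members of each marker list, the 10 largest and 10 smallest ratios for the libraries numbered 1 (genes averaging 10 counts or more, predicted and RIKEN symbols left out), and checks. Genes outside this rule, such as Hpca, Ptk2b, Slc17a7, Sst, Crh and Dio2, were named after their values were seen. Some genes that the rule names are not reported here. GC content and length are medians over the GENCODE M21 transcripts of a gene.

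Replicate numbers pair the libraries by the data alone. Deviations of log2 CPM (prior count 2) from the genotype mean gave correlations for the pairs of libraries with one number of 0.805, 0.204, 0.395 and 0.308 (numbers 1 to 4). CTL 3 correlated more with COX10 KO 4 (0.469) than with COX10 KO 3. Values with the number as a block are given where they change a call. Alternatives were DESeq2 1.42.0, relative log expression factors, no filter, at least 10 counts in every library, the block in both tools, a term for number 1, thinning to the shallowest library, and libraries left out singly or by number. Leaving out both libraries numbered 2, 3 or 4 was added after the data had been seen. The pipeline was tested on simulated data.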

Additional observations from a re-analysis of the deposited data

Results flagged for a closer look

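Within groups of 4, a sample was singled out where its gap to the nearest other sample was too large a share of the range of the group by Dixon's 95% criterion. This was so in 15 of 202 groups looked at (29 marker sums and 72 genes in each genotype). The same 8 libraries recur in all of these groups, and some sums contain genes that were also looked at singly. The genes were partly chosen from these data, so the count has no chance rate to be set against. CTL 4 was the far sample for the sums of GABAergic (1123 CPM, highest) and oligodendrocyte markers (13460 CPM, highest) and for Gad1 (479.5 CPM) and Hadhb (28.2 CPM), which were highest, and Ttr (1232 CPM) and Cry2 (50.6 CPM), which were lowest. CTL 1 was highest for the pituitary sum (15.0 CPM) and Slc16a1 (22.9 CPM) and lowest for Npy2r (9.88 CPM) and Ifi27 (26.3 CPM). COX10 KO 1 was lowest for Tef (213 CPM) and Dbp (27.1 CPM), COX10 KO 2 was lowest for Fgfr1 (31.4 CPM), and COX10 KO 4 was highest for the pituitary sum (70.2 CPM) and Pomc (69.8 CPM).

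The genotype effect differed between hypothalamus and muscle by the test of the difference for 18 listed genes, each with the smaller value in hypothalamus. ISRmt members too low for the fit of hypothalamus alone, Gdf15 among them, entered the fit through muscle. Several ISRmt genes were already reported as raised there, so this direction was partly set in advance. The differences in log2 fold change, hypothalamus minus muscle, were -4.84 for Mt2, -3.63 for Mt1, -4.69 for Mthfd2, -7.34 for Gdf15, -3.63 for Psat1, -4.57 for Asns, -2.41 for Slc7a1, -1.79 for Hspa9, -2.19 for Ddit3, -2.06 for Pck2, -4.43 for Trib3, -1.79 for Slc7a11, -1.46 for Lonp1, -1.38 for Atf4, -1.14 for Hspe1, -3.21 for Sesn2, -0.96 for Hspd1 and -2.10 for Mthfd1l.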

How the results depend on the processing

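The count of called genes was 0 without the block under every alternative run, from DESeq2 to each library left out in turn (0 to 0 higher and 0 to 0 lower). With the replicate block, 2 of 14212 genes were called higher by edgeR, and 18 higher and 2 lower by DESeq2, of 5548 with an adjusted p. With the block it was 2 higher without the libraries numbered 1 (Npy, and Cga at 6.05, a pituitary transcript whose counts among the remaining 6 libraries lay mainly in COX10 KO 2 and 4), 3 without those numbered 4 and 1 without those numbered 3, and 0 without those numbered 2. Under the replicate block Npy passed the test at a log2 fold change of 1.14 in edgeR and 1.14 in DESeq2, and also at 1.17 without number 1 and 0.99 without number 4. The causes of these changes were not tested. Npy ran from 0.97 to 1.33 and Agrp from 0.99 to 2.14 with 1 library left out. In edgeR the block changed no call of Agrp, and DESeq2 with the block gave Agrp no adjusted p.

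A value to which DESeq2 gave no adjusted p, as for Agrp and Zbtb16 with the block, was counted below as not passing. Of 1575 values for 72 named genes under 22 alternatives, 1537 kept their direction and, so counted, their side of the threshold. A further 13 newly passed it and 25, in 9 genes, changed sign. Without both libraries numbered 4 these were Hcrt (-0.16), Pomc (-1.31), Cox15 (0.14), Pmch (-0.13), Bdnf (0.033) and Gad1 (0.15), and with the block as well Hcrt (-0.074), Gfap (-0.0063), Pomc (-1.08), Cox15 (0.10), Pmch (-0.28), Bdnf (0.043) and Gad1 (0.14). With 1 library left out in turn, Gfap ran from -0.10 (without COX10 KO 4) to 0.42, Pomc from -1.28 (without COX10 KO 4) to 1.29, Pmch from -0.055 (without COX10 KO 4) to 0.92, Cox15 from -0.71 to 0.37 (without CTL 4), Gad1 from -0.62 to 0.15 (without CTL 4), Bdnf from -0.29 to 0.027 (without COX10 KO 2) and Kl from -0.17 (without COX10 KO 1, and -0.067 without CTL 2) to 0.38. Pomc was -0.23 in DESeq2 with the block, Pomc (-0.013) and Pmch (-0.062) turned with the block without number 1, and Rsad2 (-0.091) with the block without number 3. The count of ISRmt genes whose effect differed from muscle was 16 of 27, and 16 with relative log expression factors, 11 of 26 with male muscle alone and 15 without the hypothalamus libraries numbered 1. Over all genes, 283 differed between the tissues, and 187 with male muscle alone. Genes at an unadjusted p under 0.05 between the genotypes numbered 211, and 684 without the expression filter, 655 without the libraries numbered 1 and 1341 with the block. Of 57 alternative ratios for 29 marker lists, 2 moved by more than the spread, both without the most abundant member, to 1.12 for choroid plexus and 1.22 for the preoptic area. With 4 libraries a side, a fold of 2.19 such as that of Npy did not pass the test without the block.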
